A study of Rattus norvegicus with 8 samples.

Results

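Kainate and delta glutamate receptors are encoded in the rat by a small group of genes, and 6 of them, Grik1, Grik2, Grik3, Grik4, Grik5 and Grid1, were followed here in hippocampal neurons. The members were picked by gene symbol from a table of 28909 symbols, all 6 were found, and all 6 were among the 14309 genes with enough reads to be tested. Neurons from Sprague-Dawley rat embryos were grown on filter inserts whose pores let axons and dendrites, but not cell bodies, reach the lower side. From day 18 to day 20 in culture they received either 100 μM picrotoxin (PTX), which blocks GABA-A receptors, or its ethanol vehicle (control), for 48 h. Ribosome-depleted total RNA was then sequenced from the upper side (somata) and the lower side (processes), giving 4 conditions with 2 libraries each: somata control, somata PTX, processes control and processes PTX.

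Kainate receptors are tetrameric glutamate-gated cation channels that sit on both sides of the synapse, where they carry slow excitatory currents, adjust transmitter release and, through G proteins, dampen afterhyperpolarisation. Grik1, Grik2 and Grik3 encode the low-affinity subunits, which can form channels on their own, whereas Grik4 and Grik5 encode the high-affinity subunits, which need a low-affinity partner to reach the surface and work. In the hippocampus these receptors are best known at the synapses of mossy fibres onto pyramidal cells and on interneurons. Grid1 encodes a delta receptor, which resembles the others in sequence but is not opened by glutamate and instead ties the postsynaptic membrane to presynaptic neurexins through secreted cerebellins.

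The libraries held between 12290890 and 18455662 counts. Mitochondrial transcripts took 22.6% to 26.7% of the counts in somata and 68.5% to 72.5% in processes, which left 9517542 to 11227599 counts for other genes in each somata library and 4702054 to 5491237 in each processes library. Each level is a normalised read count in CPM (reads relative to the library total, corrected by the trimmed mean of M-values, TMM), which sets the typical gene to no difference between libraries. Every compartment difference below is therefore relative to the typical tested gene and says nothing of the total RNA on each side. Because transcript lengths were not used, levels are compared between conditions for each gene and not between genes. Each difference was tested in a single edgeR quasi-likelihood fit of the 8 libraries with Benjamini-Hochberg adjustment over the 14309 genes, and a gene was called at an adjusted p under 0.05. Nothing in the labels says that the 2 libraries of a condition came from separate cultures, so p-values measure only the spread between these samples, which may be technical.

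Markers show what the compartments contained. All 5 neuron markers were tested, with Map2, whose mRNA is carried into dendrites, the most abundant. Their summed level was 1435 and 1323 CPM in somata control, 1268 and 1165 CPM in somata PTX, 5099 and 4853 CPM in processes control and 4265 and 3640 CPM in processes PTX. Map2 alone made up 4693 and 4524 CPM of the processes control sums, and of the 5 markers 3 were higher and 2 lower in processes than in somata, in control and in PTX-treated cultures. The 4 dendritic mRNAs Camk2a, Ddn, Shank1 and Dlgap3 were all higher in processes than in somata, with a median log2 fold change of 2.61 in control cultures, and summed to 295 and 281 CPM in somata control, 232 and 231 CPM in somata PTX, 2293 and 1548 CPM in processes control and 1237 and 1102 CPM in processes PTX. Glia were present on both sides: the 7 astrocyte markers, led by Gfap, summed to between 2755 and 4077 CPM in somata and between 10788 and 14255 CPM in processes, and the 4 oligodendrocyte precursor markers, led by Olig1, to between 233 and 354 CPM and between 392 and 561 CPM. Gfap alone gave 11111 and 9382 CPM of the astrocyte sums in processes control, where 3 of the 7 astrocyte markers were higher and 2 lower than in somata, while with PTX 4 were higher and 0 lower. Microglia markers (4 found, Csf1r the most abundant) and endothelial markers (2 found, Cldn5 at 0 in every library) stayed at or below 1.51 CPM in sum. Beside these marker counts, 25.8% of all tested genes were higher and 21.9% lower in processes control, and 25.7% and 24% with PTX. In such bulk samples, fewer cells of a type and less RNA per cell cannot be told apart, and the part of these markers in the differences below was not tested.

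Comparing processes with somata in control cultures asks which receptor mRNAs were higher or lower in processes, relative to the typical tested gene. All 6 members were counted in every processes library, from 13 to 45 reads for Grik1 up to 497 to 766 for Grik5. Of the 6 members, 4 were lower in processes (Grik1, Grik2, Grik3 and Grik4), 1 was higher (Grik5) and Grid1 did not pass. Against this, 21.9% of all tested genes were lower and 25.8% were higher in the same comparison. In PTX-treated cultures 1 member, Grik2, was lower in processes, where 24% of all genes were lower, and no member was higher, where 25.7% of all genes were. That count of 0 comes from the quasi-likelihood test, which also had 0 members higher there at an unadjusted p under 0.05 (0.217 for Grik5), and neither the likelihood ratio test nor DESeq2 called a member higher there. The median log2 fold change of the 6 members was -0.57 in control and -0.09 in PTX-treated cultures, beside -0.05 for all tested genes in both.

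**Figure D1:**
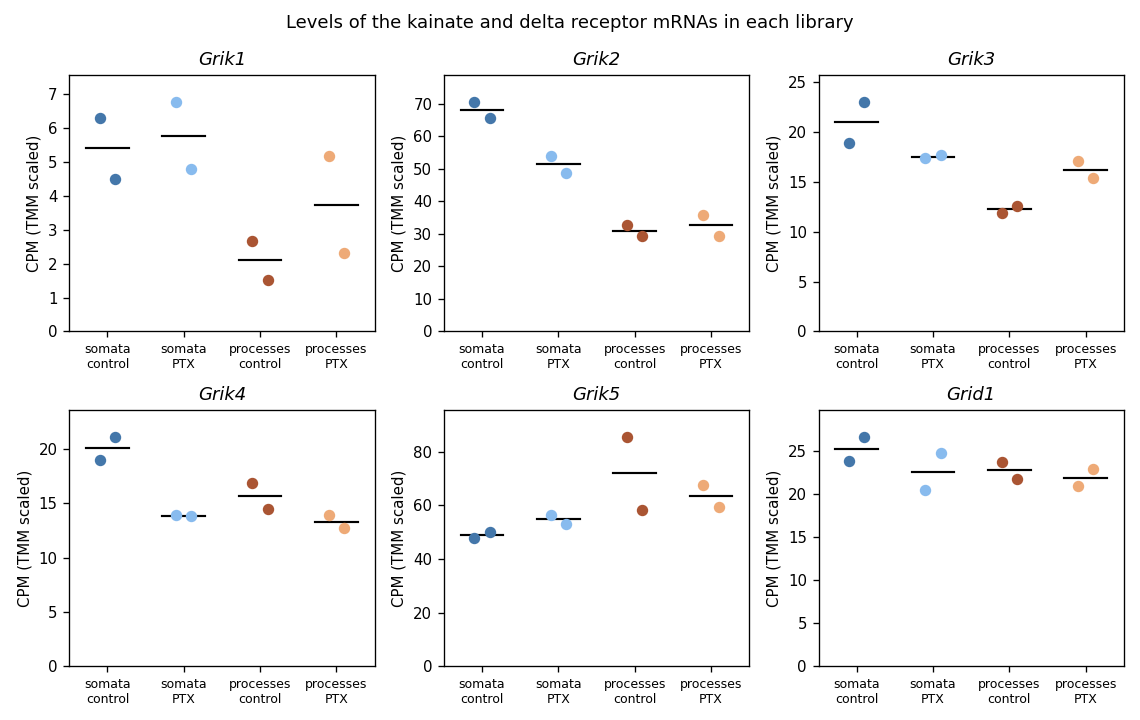
Level of each receptor mRNA in CPM (y axis, from 0, a separate scale for each gene) in the 4 conditions (x axis), where each point is a library and each line is the mean of 2 libraries. Grik2 lay between 48.8 and 70.4 CPM in the somata libraries and between 29.2 and 35.7 CPM in the processes libraries, whereas the ranges of Grid1 overlapped.

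Grik2, whose product is the main low-affinity subunit of principal cells, had the smallest adjusted p of the members in the comparison of compartments. Its level was 70.4 and 65.5 CPM in somata control, 53.8 and 48.8 CPM in somata PTX, 32.6 and 29.2 CPM in processes control and 35.7 and 29.5 CPM in processes PTX. All 4 processes libraries lay below all 4 somata libraries, and the somata control libraries stood above the somata PTX libraries, while the processes conditions overlapped. The log2 fold change of processes against somata was -1.14 (95% CI -1.42 to -0.85, adjusted p = 4.26e-05) in control cultures, which is 54.5% lower, and -0.66 (95% CI -0.94 to -0.38, adjusted p = 0.00152) with PTX. Grik2 was called lower in both comparisons under each of their 13 alternatives of test, scaling, filter, model and left-out library. Of the 4 excitatory neuron markers, 2 were lower and 0 higher in processes control (median -0.57), beside 21.9% and 25.8% of all genes. With PTX 2 were again lower and 0 higher (median -0.44), beside 24% and 25.7%. The part of these markers in the Grik2 difference was not tested.

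Grik1 encodes a low-affinity subunit that hippocampal interneurons are known to use. It was counted with few reads, 113 to 188 in each somata library and 13 to 45 in each processes library. The lowest count, 13 reads in processes control replicate 2, has an exact 95% Poisson interval of 6.92 to 22.2 reads, which covers counting error only. Its level was 6.29 and 4.50 CPM in somata control, 6.76 and 4.78 CPM in somata PTX, 2.68 and 1.53 CPM in processes control and 5.17 and 2.31 CPM in processes PTX. Both processes control libraries lay below every somata library, while processes PTX replicate 1 reached into the somata range. In control cultures the log2 fold change was -1.35 (95% CI -2.24 to -0.46, adjusted p = 0.018). With PTX it was -0.65 (95% CI -1.44 to 0.14, adjusted p = 0.155), and it rested on single libraries, at -1.32 (adjusted p = 0.0286) without processes PTX replicate 1 and -0.16 (adjusted p = 0.746) without processes PTX replicate 2. Grik1 passed there once replicate numbers entered the fit as a block (-0.65, adjusted p = 0.0141), although the labels do not say what the numbers mark. It also passed with no filter (-0.67, adjusted p = 0.0267), with the total outside the mitochondrial genome (-1.11, adjusted p = 0.0183) and by library size only (-2.49, adjusted p = 1.02e-05), so in 5 of 13 alternatives, whose adjusted p ranged from 1.02e-05 to 0.746. The control call was lost without somata control replicate 1 (log2 fold change -1.09, adjusted p = 0.0894) and without processes control replicate 2 (-1.01, adjusted p = 0.142), and the adjusted p ranged from 2.93e-06 to 0.142 over its 13 alternatives. Interneuron markers moved the same way between compartments: 5 of the 8 tested were lower in processes control, beside 21.9% of all genes. The 9 listed, led by Gad2, summed to 352 and 247 CPM in somata control against 181 and 139 CPM in processes control. With PTX, where Grik1 did not pass, 6 of the 8 were lower in processes (median -1.07), beside 24% of all genes. The part of these markers in the Grik1 difference was not tested.

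Grik3, the third low-affinity subunit gene, was measured at 19.0 and 23.0 CPM in somata control, 17.4 and 17.7 CPM in somata PTX, 11.9 and 12.6 CPM in processes control and 17.1 and 15.4 CPM in processes PTX. The 4 conditions did not overlap, in the falling order somata control, somata PTX, processes PTX and processes control, with less than 1 CPM between somata PTX and processes PTX. In control cultures Grik3 was lower in processes by a log2 fold change of -0.78 (95% CI -1.10 to -0.46, adjusted p = 0.00136), a call that was kept with each of the 4 libraries left out in turn. With PTX the value was -0.11 (95% CI -0.42 to 0.20, adjusted p = 0.526), and -0.19 to -0.04 with 1 library left out.

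The high-affinity subunit genes differed from each other. Grik4, best known from the pyramidal cells that receive mossy fibres, was measured at 19.0 and 21.1 CPM in somata control, 14.0 and 13.8 CPM in somata PTX, 16.8 and 14.4 CPM in processes control and 13.9 and 12.8 CPM in processes PTX. Somata control was the highest condition and processes control came next, both clear of their neighbours, while the PTX conditions of the compartments overlapped. The log2 fold change of processes against somata was -0.36 (95% CI -0.66 to -0.06, adjusted p = 0.0495) in control cultures and -0.06 (95% CI -0.37 to 0.25, adjusted p = 0.744) with PTX. The control call sat at the threshold and was kept in 7 of 13 alternatives. DESeq2 gave an adjusted p of 0.159, no filter 0.0686, only the 4 libraries compared 0.0712, and leaving out somata control replicate 1, somata control replicate 2 or processes control replicate 2 gave 0.0763, 0.216 and 0.231, within a range of 7.20e-08 to 0.231.

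Grik5, the widely expressed high-affinity subunit gene, was the member found at a higher level in processes. It was measured at 47.8 and 50.2 CPM in somata control, 56.6 and 53.0 CPM in somata PTX, 85.4 and 58.4 CPM in processes control and 67.4 and 59.2 CPM in processes PTX. All 4 processes libraries exceeded all 4 somata libraries, although processes control replicate 1 stood far above its partner. In control cultures the log2 fold change was 0.55 (95% CI 0.20 to 0.90, adjusted p = 0.0148), or 46.8% higher, and with PTX it was 0.21 (95% CI -0.14 to 0.56, adjusted p = 0.298) and, with 1 library left out, 0.11 to 0.30. Without processes control replicate 1 the control value was 0.25 (adjusted p = 0.157), without somata control replicate 1 it was 0.52 (adjusted p = 0.0735), and with upper quartile scaling it was 0.35 (adjusted p = 0.0799). Over 13 alternatives the adjusted p ranged from 2.92e-06 to 0.613, where the lowest belongs to scaling by library size only, which turned the sign.

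The sign of the Grik5 difference depended on the scaling. Scaled to the total outside the mitochondrial genome, Grik5 had a log2 fold change of 0.09 in control cultures and -0.25 with PTX, with upper quartile scaling 0.35 and 0.03, and by library size only -1.27 and -1.62. The median of all tested genes moved along, from -0.05 to -0.51, -0.25 and -1.86 in control cultures, and the share of called genes that were lower in processes went from 45.9% to 78.5%, 63.1% and 98.6%. With PTX that share went from 48.3% to 78.4%, 62.1% and 98.7%. In PTX-treated cultures Grik3 (-0.57 and -1.94), Grik4 (-0.51 and -1.89) and Grid1 (-0.50 and -1.87) also passed as lower in processes with the total outside the mitochondrial genome and by library size only. Taken relative to the median gene of the same scaling, Grik5 in control cultures stood at 0.60 with the main scaling and the total outside the mitochondrial genome, at 0.60 with the upper quartile and at 0.59 by library size. On that relative scale Grik2 stood at -1.09 in all 4, Grik1 at -1.30, Grik3 at -0.73, Grik4 between -0.32 and -0.31 and Grid1 between -0.11 and -0.10. Another scaling shifts all genes by nearly the same amount, so these relative values agree by construction and are no sign of stability.

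Under TMM scaling Grid1 had the smallest compartment difference of the members, whereas with the 3 other scalings Grik5 lay closer to 0 in control cultures. Its level was 23.9 and 26.7 CPM in somata control, 20.5 and 24.9 CPM in somata PTX, 23.8 and 21.8 CPM in processes control and 21.0 and 22.9 CPM in processes PTX. Neighbouring conditions overlapped, except that both somata control libraries lay just above every processes library. The log2 fold change of processes against somata was -0.15 (95% CI -0.45 to 0.15, adjusted p = 0.386) in control cultures and -0.04 (95% CI -0.34 to 0.26, adjusted p = 0.819) with PTX. The control value was -0.22 without somata control replicate 1 and -0.076 without somata control replicate 2. It passed as lower in processes control by library size only (-1.96, adjusted p = 2.67e-07), with upper quartile scaling (-0.35, adjusted p = 0.0482) and with the total outside the mitochondrial genome (-0.61, adjusted p = 0.00273), within a range of 2.67e-07 to 0.761 over 13 alternatives.

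**Figure D2:**
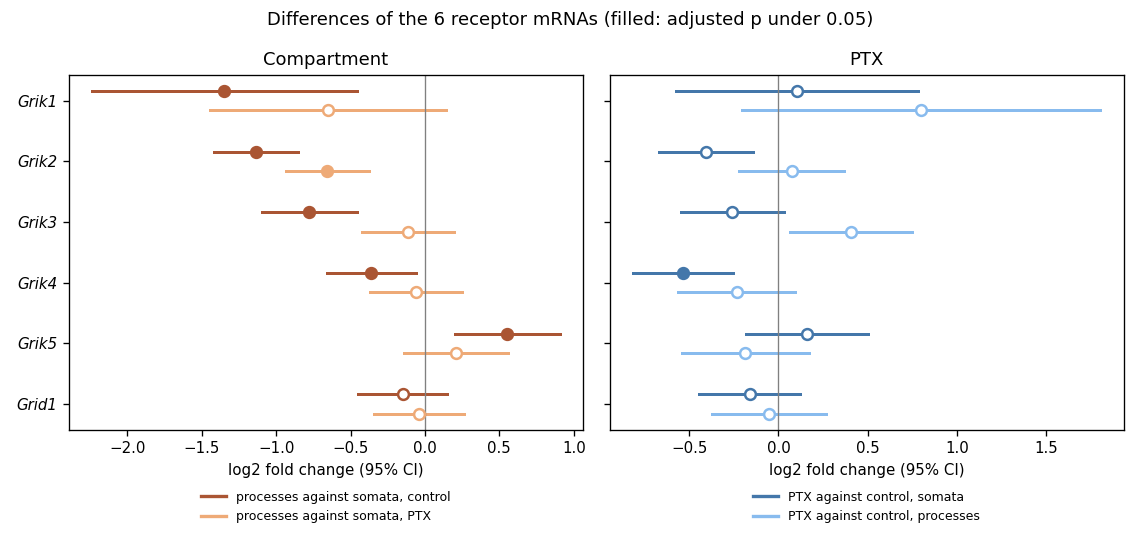
Log2 fold change (x axis) of the 6 members (y axis) between processes and somata (left) and between PTX and control (right), as points with 95% confidence intervals from edgeR's quasi-likelihood fit, filled where the adjusted p was under 0.05. In control cultures the values ran from -1.35 for Grik1 to 0.55 for Grik5, the latter being relative to the typical gene and -1.27 when scaled by library size only.

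Ratios of reads within a library do not depend on the scaling, and a change of such a ratio between conditions does not depend on transcript length. Grik5 was set against each other member after the levels had been seen, so the ratios are given without a test. For every read of Grik2 there were 0.679 and 0.767 reads of Grik5 in somata control, 1.05 and 1.09 in somata PTX, 2.62 and 1.996 in processes control and 1.89 and 2.01 in processes PTX. The 4 conditions were ordered from somata control through somata PTX to the processes, with no overlap between compartments.

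For Grik5 over Grik1 the ratio was 7.59 to 11.1 in the somata libraries and 13.0 to 38.2 in the processes libraries, and for Grik5 over Grik3 it was 2.18 to 3.24 and 3.85 to 7.16. Both pairs kept the compartments apart in all 8 libraries. Between the high-affinity subunits, Grik5 over Grik4, the somata range of 2.38 to 4.05 touched the processes range of 4.04 to 5.07, because the somata PTX libraries (4.05 and 3.84) stood well above the somata control libraries (2.51 and 2.38). For Grik5 over Grid1 the ranges also overlapped, at 1.88 to 2.76 and 2.58 to 3.60.

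**Figure D3:**
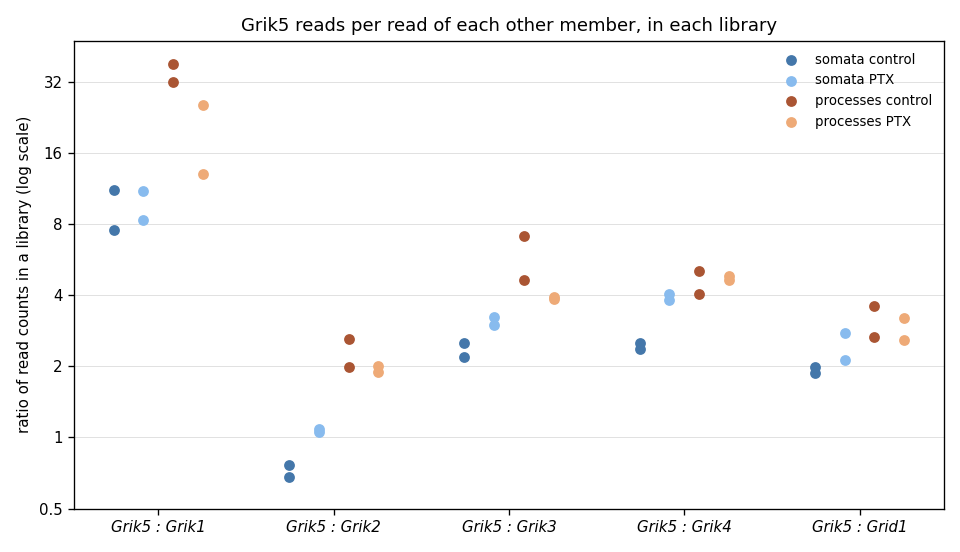
Reads of Grik5 divided by reads of each other member in the same library (y axis, log scale) for 5 pairs (x axis), where each point is a library coloured by condition. The Grik5 to Grik2 ratio lay between 0.679 and 1.09 in the somata libraries and between 1.89 and 2.62 in the processes libraries.

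Comparing PTX with vehicle asks whether 48 h of PTX altered the receptor mRNAs in somata, in processes or in both. In somata, 1 of the 6 members fell (Grik4) and none rose, while 1.5% of all tested genes fell and 2.09% rose. In processes no member fell or rose, while 2.1% of all genes fell and 1.64% rose. At an unadjusted p under 0.05 the quasi-likelihood test had 2 members in somata (Grik2 and Grik4) and 1 in processes (Grik3), beside 2229 and 2369 of all 14309 genes, and neither the likelihood ratio test nor DESeq2 called a member in processes. The median log2 fold change of the members was -0.21 in somata and 0.01 in processes, beside -0.01 for all genes in both.

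The fall of Grik4 in somata had a log2 fold change of -0.53 (95% CI -0.81 to -0.25, adjusted p = 0.0462), a decrease of 30.9%, and both PTX libraries lay below both control libraries. In processes the value was -0.23 (95% CI -0.56 to 0.09, adjusted p = 0.487), again with both PTX libraries below both controls, and it was -0.12 without processes control replicate 1. The somata call is near the threshold: DESeq2 gave an adjusted p of 0.107 with a log2 fold change of -0.53, scaling by library size gave 0.106, and leaving out any of the 4 somata libraries gave 0.119 to 0.312, within a range of 0.00198 to 0.312 over 13 alternatives. Its direction was the same in all 13. By library size only, the share of called genes that fell in somata was 28.5% in place of 41.7%.

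For Grik2 the PTX libraries in somata also lay below the controls, with a log2 fold change of -0.41 (95% CI -0.67 to -0.14, adjusted p = 0.1003), which did not pass. The likelihood ratio test put it under the threshold with an adjusted p of 0.0436, the replicate number as a block did so with 0.00183, and the range over 13 alternatives was 0.00183 to 0.413. In processes its log2 fold change was 0.07 (95% CI -0.22 to 0.37, adjusted p = 0.846), with overlapping libraries. Grik3 had lower PTX libraries in somata (-0.26, 95% CI -0.55 to 0.03, adjusted p = 0.39) and higher PTX libraries in processes (0.41, 95% CI 0.06 to 0.75, adjusted p = 0.211), neither passing the threshold. The somata value was -0.39 without somata control replicate 1 and -0.12 without somata control replicate 2.

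Grik1 gave 0.10 in somata (95% CI -0.57 to 0.78, adjusted p = 0.932) and 0.80 in processes (95% CI -0.20 to 1.804, adjusted p = 0.425), so neither passed. Replicate 1 exceeded replicate 2 in all 4 conditions, and with replicate numbers as a block the processes value was 0.81 (unadjusted p = 0.016, adjusted p = 0.105). The processes value was 0.13 without processes PTX replicate 1 and 1.29 without processes PTX replicate 2. Grik5 gave 0.16 in somata (95% CI -0.18 to 0.50, adjusted p = 0.722), where both PTX libraries lay above both controls, and -0.19 in processes (95% CI -0.54 to 0.17, adjusted p = 0.637), where they overlapped. The somata value of Grik5 was 0.11 to 0.20 with 1 library left out. Grid1 stayed within -0.16 (95% CI -0.44 to 0.12, adjusted p = 0.649) and -0.05 (95% CI -0.37 to 0.27, adjusted p = 0.911), with overlap in both compartments, and its somata value was -0.31 to -0.03 with 1 library left out.

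Whether PTX acted differently in the compartments was tested as an interaction, given here as the log2 fold change with PTX in processes less the one in somata. No member passed, and 0% of all tested genes did. That count of 0 is from edgeR's quasi-likelihood test, which had 572 of 14309 genes at an unadjusted p under 0.05, while the likelihood ratio test and DESeq2 each called 4 genes, none of them a member. Among the members the difference was 0.66 for Grik3 (95% CI 0.22 to 1.11, unadjusted p = 0.00752), 0.48 for Grik2 (95% CI 0.08 to 0.87, unadjusted p = 0.0222), 0.70 for Grik1 (95% CI -0.52 to 1.91, unadjusted p = 0.232), 0.30 for Grik4, 0.11 for Grid1 and -0.35 for Grik5. All 6 had an adjusted p that rounds to 1. The value of Grik1 was 0.026 without processes PTX replicate 1 and 1.18 without processes PTX replicate 2, that of Grik5 was -0.045 without processes control replicate 1 and -0.59 without processes control replicate 2, and that of Grik4 was 0.19 without processes control replicate 2.

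Cell type markers also moved with PTX. Beside the calls below stand 1.5% of all genes falling and 2.09% rising in somata, and 2.1% and 1.64% in processes. The 4 excitatory neuron markers, led by Slc17a7, summed to 312 and 303 CPM in somata control and 239 and 218 CPM in somata PTX, against 202 and 156 CPM and 276 and 255 CPM in processes, and 1 of the 4 fell in somata (Neurod6, -1.64, adjusted p = 0.000785), while in processes 2 fell (Neurod6, -1.34, adjusted p = 0.00818, and Neurod2, -1.44, adjusted p = 0.0138) and Slc17a7 rose (0.73, adjusted p = 0.0172). Interneuron markers summed to 558 and 424 CPM in somata PTX and 291 and 223 CPM in processes PTX, above their controls on each side, with Gad1 (0.82, adjusted p = 0.0247) and Gad2 (0.92, adjusted p = 0.0328) rising in somata and Gad2 (0.92, adjusted p = 0.0384) in processes. These 2 of the 8 tested interneuron markers in somata, and Gad2 as 1 of 8 in processes, were the calls behind the sums, and the lowest of the 8 log2 fold changes were -0.41 and -0.54. With PTX in somata 1 of 5 neuron markers, 1 of 7 astrocyte markers and 1 of 4 dendritic mRNAs (Camk2a, -1.13, adjusted p = 0.00305) also fell. In processes 2 of 4 dendritic mRNAs did (Camk2a, -1.45, adjusted p = 0.00165, and Shank1, -1.12, adjusted p = 0.0135). For both, processes control replicate 1 stood well above replicate 2, at 772 and 572 CPM for Camk2a and 661 and 388 CPM for Shank1. The processes PTX libraries had 234 and 258 CPM of Camk2a and 244 and 239 CPM of Shank1. Of the granule cell markers Prox1 and Dsp, Prox1 the more abundant, neither passed in any comparison, and they summed to between 8.84 and 14.1 CPM. The part of these markers in the Grik4 decrease was not tested.

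Genes with a profile like that of a member were sought among the 10203 tested genes whose mean level reached 5 CPM, by the root mean square difference of centred log2 CPM over the 8 libraries. Nearest to Grik2 were Cadm2 (0.08), Car11 (0.10) and Unc5c (0.10), a distance small beside the range of 1.26 that Grik2 itself covered. Grik3 had Ap5m1 (0.07), Pomt1 (0.09) and Tmem245 (0.09) with a range of 0.94, and Grik4 had Celsr2 (0.08), LOC100912282 (0.08) and Ankrd13d (0.09) with a range of 0.72. For Grik5 these were Tysnd1 (0.06), AABR07026654.1 (0.07) and Arf5 (0.08), for Grid1 Gigyf1 (0.04), Snd1 (0.06) and Mbtps1 (0.06), and for Grik1, at its low counts, Pcdh18 (0.14), RT1-A2 (0.19) and Adm (0.20). These genes were chosen for their likeness, so their values are no test of it.

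Neto1 and Neto2 encode auxiliary subunits that bind kainate receptors and slow their gating. Neto1 was measured at 60.7 and 50.8 CPM in somata control, 40.1 and 35.1 CPM in somata PTX, 40.6 and 35.6 CPM in processes control and 24.6 and 24.8 CPM in processes PTX. Within each compartment both PTX libraries lay below both controls. Neto1 fell with PTX in somata (-0.57, SE 0.125, adjusted p = 0.0325) and in processes (-0.62, SE 0.140, adjusted p = 0.0363), and it was lower in processes than in somata in control (-0.55, adjusted p = 0.00565) and PTX-treated cultures (-0.61, adjusted p = 0.00357). Neto2 was lower in processes control (-0.52, adjusted p = 0.0416) and passed in no other comparison. Alternatives are given for the members only. How far the calls of single genes here and in the lists below depend on 1 library is therefore not shown.

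Of the proteins that deliver, anchor or modify kainate and delta receptors inside the cell, 6 of 12 mRNAs were higher and 3 lower in processes control, with a median of 0.31, beside 25.8% and 21.9% of all tested genes. In PTX-treated cultures 4 were higher and 3 lower, beside 25.7% and 24%. The postsynaptic scaffolds Dlg4 (1.78, adjusted p = 1.12e-05), Dlg1 (0.98, adjusted p = 0.000103) and Cask (0.31, adjusted p = 0.0284) were higher, as was Klhl24 (0.58, adjusted p = 0.000933), which binds the Grik2 product. Klhl17, an adaptor that marks the Grik2 product for degradation, was lower (-1.79, adjusted p = 0.000557), as were the PDZ proteins Pick1 (-0.76, adjusted p = 0.00926) and Gopc (-0.54, adjusted p = 0.0152). With PTX 1 of the 12 fell in processes, beside 2.1% of all genes, namely the chloride transporter Slc12a5 (-0.88, adjusted p = 0.027), which associates with kainate receptors. None of the 12 passed in somata, where 1.5% of all genes fell and 2.09% rose. At an unadjusted p under 0.05 the quasi-likelihood test had 3 of the 12 there, beside 2229 of all 14309 genes. Slc12a5 had -0.66 in somata (adjusted p = 0.0549) without overlap of the libraries. Its difference between compartments did not pass (interaction -0.22, unadjusted p = 0.394).

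RNA editing recodes a residue of the channel pore in Grik1 and Grik2 transcripts. Among the 3 editing enzyme genes, Adarb1 was higher in processes control (0.84, adjusted p = 0.00226) and Adar lower (-0.45, adjusted p = 0.0315), and Adarb1 was also higher in processes in PTX-treated cultures (0.57, adjusted p = 0.0163). None of the 3 passed for PTX against control. At an unadjusted p under 0.05 the quasi-likelihood test had 0 of them in somata and 1 in processes. Of 9 tested cerebellins, C1q-like proteins and neurexins, through which Grid1 and kainate receptors reach presynaptic partners, 3 were lower in processes control, namely C1ql2 (-1.47, adjusted p = 0.00161), Nrxn3 (-1.37, adjusted p = 0.000833) and Cbln2 (-1.03, adjusted p = 0.0361). Nrxn2 was higher (0.53, adjusted p = 0.00539). These 3 and 1 of 9 stand beside 21.9% and 25.8% of all genes, and in PTX-treated cultures 6 of the 9 were lower and 1 higher in processes (median -1.28), beside 24% and 25.7%. None of the 9 passed for PTX against control in either compartment. Of all tested genes 1.5% fell and 2.09% rose with PTX in somata, and 2.1% and 1.64% in processes. At an unadjusted p under 0.05 the quasi-likelihood test had 5 of the 9 in somata, beside 2229 of all 14309 genes. In processes it had 2 of the 9, beside 2369. The median log2 fold change of the 9 with PTX was 0.23 in somata and -0.10 in processes.

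The other glutamate receptors were read beside the members. Where 21.9% of all tested genes were lower, all 4 AMPA receptor subunit mRNAs were lower in processes control, with a median of -0.78, and 4 of 7 NMDA receptor subunit mRNAs were, with a median of -0.54, beside -0.57 for the 6 kainate and delta members, and none of these 11 was higher. In PTX-treated cultures, where 24% of all genes were lower, 3 of 4 AMPA subunit mRNAs (median -0.51) and 3 of 7 NMDA subunit mRNAs (median -1.21) were lower in processes, beside 1 of the 6 members (median -0.09). Metabotropic receptors split in processes control, with 3 of 8 higher, led by Grm3 (2.60, adjusted p = 5.13e-07), and 3 lower, beside 25.8% and 21.9% of all genes. With PTX 1 of 4 AMPA, 1 of 7 NMDA and 2 of 8 metabotropic mRNAs fell in somata, beside 1.5% of all genes. In processes 2 of 8 metabotropic mRNAs fell, beside 2.1% of all genes. Among them, Gria1 (-0.53, adjusted p = 0.0301), Grin3a (-0.84, adjusted p = 0.0221) and Grm5 (-0.71, adjusted p = 0.042) fell in somata, and Grm3 (-0.80, adjusted p = 0.0067) fell in processes. No AMPA, NMDA or metabotropic receptor mRNA rose in either, where 2.09% and 1.64% of all genes rose.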

How the data were processed

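The authors trimmed the reads with Trimmomatic, mapped them to the rat genome Rnor_6.0 with Subread subjunc (the submitters' processing notes name STAR), counted them with featureCounts and summed them by symbol. The deposited counts are whole numbers without normalization. Tables of the authors' own comparisons (log2 fold changes, log2 CPM, likelihood ratios, p-values and FDR) were not used. The library kit keeps strand, but the strand setting of the counting is not given in the sources used here, so reads of overlapping or antisense genes cannot be separated. A gene was tested if 2 or more libraries each held over 20 of its reads. TMM factors, glmQLFit and glmQLFTest came from edgeR 4.0.16 in R 4.3.3, with 1 coefficient per condition. The 95% intervals use each fit's standard error. Nearest profiles used a prior count of 2. The median tested gene had 268 to 319 reads in somata libraries and 96 to 110 in processes libraries. Tried besides were edgeR's likelihood ratio test, DESeq2 1.42.0, other scalings and filters, a replicate block, only the 4 libraries compared and leaving out each library. Tests were checked on simulated counts. Members and lists were chosen with earlier results of these data known. Named genes are the members, their nearest profiles and called genes of the lists. Some single genes are left out. Of the marker genes, 6 were not found by symbol, including all 4 nuclear RNAs.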

Additional observations from a re-analysis of the deposited data

How the results depend on the processing

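Of 408 values of the members under alternatives, 359 kept their direction and side of the threshold, 18 no longer passed, 16 newly passed and 15 changed sign. The causes of these changes were not tested. The likelihood ratio test called 972 genes with PTX in somata (2 members, Grik2 and Grik4), 949 in processes and 4 in the interaction, and DESeq2 called 0 members in somata and 4 genes in the interaction. Scaling by library size called 13462 genes between compartments in control cultures and 13499 with PTX (6 members), called 0 members with PTX in somata, and turned Grik5 to -1.27 and -1.62 between compartments and Grid1 to 0.0023 with PTX in processes. The total outside the mitochondrial genome called 5 members between compartments with PTX and turned Grik5 to -0.25 there. Without a filter 1141 and 1129 genes were called with PTX in somata and processes, 10 in the interaction, and 2 members (Grik1 and Grik2) between compartments with PTX. The 4 processes libraries alone gave 298 genes with PTX. The labels number replicates alike in all conditions without saying what the numbers mark, and deviations of equal numbers correlated across genes with r of 0.27 to 0.54 over 6 pairs of conditions. With the number as a block, 2002 genes were called with PTX in somata (2 members, with Grik2 at -0.41, adjusted p = 0.00183), 1601 in processes, 15 in the interaction, and 2 members between compartments with PTX (Grik1 and Grik2). With a library left out, the lone library was assumed to vary like the other conditions. Genes called with PTX then numbered 117 to 237 in somata (0 members) and 97 to 420 in processes, and members called between compartments 2 to 4 in control and 1 to 2 in PTX-treated cultures. With PTX in somata Grik1 ranged from -0.18 to 0.36. With PTX in processes Grik2 ranged from -0.069 to 0.21, Grik5 from -0.43 to 0.12 and Grid1 from -0.12 to 0.0097. Between compartments with PTX Grik4 ranged from -0.12 to 0.0017 and Grid1 from -0.17 to 0.11, and in the interaction Grid1 from -0.017 to 0.26. Depth limits Grik1 most, at 13 to 45 reads in processes libraries.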
